A study of Rattus norvegicus with 12 samples.

Results

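Eml2, Nrdc and Arrb1 are 3 protein-coding genes whose introns, as the study places them, carry the microRNAs miR-330, miR-761 and miR-326. The members were the probes that the annotation of a rat expression array assigned to one of these symbols. There were 3 such probes, 1 for each gene, of 22523 probes on the array, and 3 genes of the 13337 that it named. Eml2 and Nrdc were detected on all 12 arrays and were tested, whereas Arrb1 was not well above background on any array and is given by its intensities alone.

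The arrays measured RNA from cultured hippocampal cells of Sprague Dawley rat embryos taken at embryonic day 18.5, grown for 12 days over a glial feeder layer. Every culture, the controls included, had first been silenced for 3 h with the NMDA receptor antagonist D-APV (50 µM), the AMPA and kainate receptor antagonist CNQX (40 µM) and the sodium channel blocker TTX (100 nM). In the 2 Activity groups this block was then exchanged for the GABA-A receptor antagonist BiC (50 µM) with the potassium channel blocker 4-AP (500 µM), which sets off synchronous firing, and in the 2 Block groups it was kept. One Activity group and one Block group also received the transcription inhibitor ActD (25 µM), which was already present before the exchange, and each of the 4 treatments (Activity+ActD, Activity, Block+ActD and Block) was harvested at 5, 30 and 60 min. In the paper, the BiC and 4-AP stimulus lasted only 5 min. RNA was taken immediately after it, or at 30 and 60 min post-stimulus. For these later harvests the medium was replaced with fresh medium lacking BiC and 4-AP. The 30 and 60 min Activity arrays therefore followed a short stimulus and were not taken during continued drug treatment. Each of the 12 groups was a single array of RNA pooled from 3 coverslips, and all 12 carried the same replicate number. The harvests of a treatment therefore stood in for its replicates, and the treatments of a harvest for those of the harvest. Nothing stated that the arrays came from separate platings, so every p-value below measures only the spread between these arrays, which may be technical. With a single array per group, that spread also holds any change of a treatment difference between harvests.

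Eml2 encodes a member of the echinoderm microtubule-associated protein-like family, which binds microtubules and affects their assembly. Nrdc, formerly Nrd1, encodes nardilysin, a zinc metalloprotease of the M16 family that promotes the shedding of membrane protein ectodomains, and in mice it is needed for axon maturation and myelination. Arrb1 encodes beta-arrestin 1, which binds phosphorylated G protein-coupled receptors, uncouples them from their G proteins, links them to clathrin and acts as a signalling scaffold. An intronic microRNA is usually cut from the same primary transcript that yields the mRNA of its host, so the pair can share a promoter while the mature products differ in processing and lifetime. The array reported the host mRNA and not the microRNA.

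The mature microRNAs of Arrb1 and Eml2 are shown because their seeds, bases 2 to 8 and here in capitals, are the part that pairs with targets, and because 1 seed links the pair of hosts. The sequences are those of RefSeq on assembly GRCr8. For miR-330, both arms lie within Eml2 on its own strand, at chr1:87961227-87961248 (plus strand) for the 5p arm and chr1:87961266-87961288 (plus strand) for the 3p arm. For miR-326, the arms lie within the span of Arrb1 at chr1:163266184-163266203 (5p, plus strand) and chr1:163266224-163266244 (3p, plus strand).
rno-miR-330-5p: uCUCUGGGccugugucuuaggc
rno-miR-326-3p: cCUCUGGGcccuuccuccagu
rno-miR-330-3p: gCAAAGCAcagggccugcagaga
rno-miR-326-5p: gGGGGCAGggccuuugugaa
The first pair share the seed CUCUGGG, which no other of the 724 mature rat microRNAs in the RefSeq table carried. The seeds of miR-330-3p and miR-326-5p were each found once in that table.

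For Nrdc the hairpin of miR-761 is shown, at chr5:129005205-129005280 (plus strand, the strand of Nrdc), in lower case throughout.
miR-761 hairpin: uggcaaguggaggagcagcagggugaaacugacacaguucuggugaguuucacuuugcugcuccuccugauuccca
In the same annotation 151 of 449 positioned microRNA entries lay inside a protein-coding gene on its strand, in 123 hosts. Some of these entries carry small nucleolar or Cajal body RNA names, such as Snora58 in Alkbh1 and Scarna3 in Dcaf5. Hosts for which no strand was given, Arrb1 among them, were not counted. Of 121 counted hosts other than the genes described here, 83 were named on the array and 57 were tested.

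Summed intensity per array ranged between 10858232.6 and 13824776.5, and 9751 to 11032 probes were detected at a detection p under 0.01. The 4 arrays of the 5 min harvest stood apart from the rest, with first principal component scores of -59.1 to -22.6, against 13.2 to 31.3 for the 8 later arrays. Of the neuronal markers, 12 of the 13 on the array were detected on every array, as were 7 of 7 astrocyte markers. No source used here gave the chip or the scan order of the arrays, so harvest and anything processed together with it cannot be told apart.

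Eml2 was highest at 60 min and, at each harvest, lowest in Block without ActD. In Activity+ActD the normalized intensity of Eml2 was 7.76, 7.43 and 7.94 on the log2 scale at 5, 30 and 60 min. In Activity it was 7.38, 7.46 and 7.997 at the same harvests. In Block+ActD it was 7.47, 7.41 and 7.88, and in Block 7.16, 7.21 and 7.46. The 3 highest arrays were thus the 60 min arrays of the treatments other than Block, followed by Activity+ActD at 5 min. The next 6 in the order, from Block+ActD at 5 min to Activity at 5 min, were each closer to the next of these 6 than 0.14, the residual SD of the gene. Over all 12 arrays the range was 0.84. In raw units the probe gave 176.8 (Block, 30 min) to 287.3 (Block+ActD, 60 min), with a detection p of 0 on every array.

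Nrdc varied less, and its low values fell at 5 min. In Activity+ActD the normalized intensity of Nrdc was 7.79, 7.98 and 7.90 on the log2 scale at 5, 30 and 60 min. In Activity it was 7.67, 8.08 and 8.12, and in Block+ActD 7.68, 8.13 and 7.87. In Block it was 7.99, 8.15 and 8.08. The 5 min arrays of Activity, Block+ActD and Activity+ActD were the 3 lowest of the 12, while Block at 5 min lay among the later arrays. Every neighbouring pair in the order of the 12 levels was closer than the residual SD of 0.13, and the whole range was 0.48. Raw intensity ran between 222.4 (Block+ActD, 5 min) and 342.7 (Block+ActD, 30 min), with a detection p of 0 throughout.

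**Figure D1:**
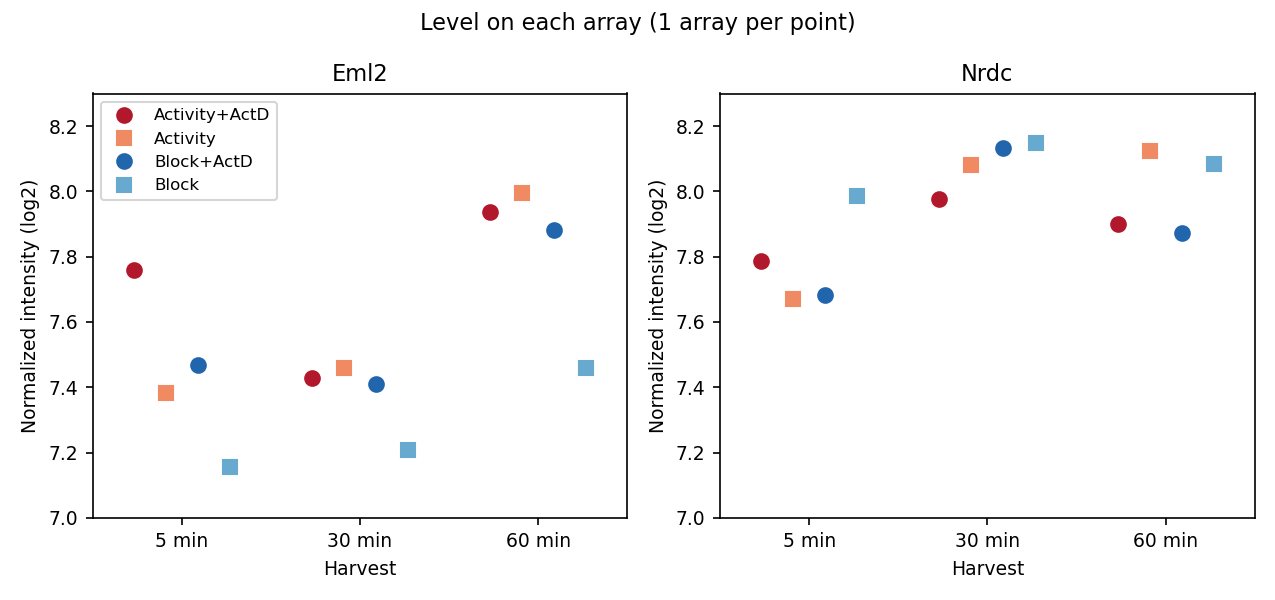
Normalized intensity (log2, vertical axis) of Eml2 and Nrdc on each of the 12 arrays by harvest (horizontal axis), 1 point per array, with no error bars since each group was 1 array. Eml2 sat at 7.46 to 7.997 on the 60 min arrays and at 7.21 to 7.46 on the 30 min arrays, and Nrdc had its 3 lowest points, 7.67 to 7.79, at 5 min.

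Arrb1 was near background everywhere. Its raw intensity was 60.5, 49.3 and 51.4 in Activity+ActD at 5, 30 and 60 min, and 58.6, 52.2 and 53.5 in Activity. In Block+ActD it was 63.5, 64.8 and 66.2, and in Block 58.5, 65.4 and 62.6. At 30 and 60 min both Activity arrays were dimmer than both Block arrays, whereas at 5 min the groups overlapped. The detection p of the probe, the share of negative controls at least as bright, lay between 0.03401 (Block+ActD, 60 min) and 0.41405 (Activity+ActD, 30 min). It was under 0.01 on 0 of 12 arrays and under 0.1 on 3, which were Block+ActD at 60 min, Block at 60 min (0.04293) and Block at 30 min (0.04608). No fold change is given because no group measured the gene above background, and the values do not show that the transcript was missing from the cells. Arrb2, which encodes the other non-visual arrestin, was likewise detected on 0 of 12 arrays, with intensities of 51.4 to 66.6 and detection p of 0.03736 to 0.27854.

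**Figure D2:**
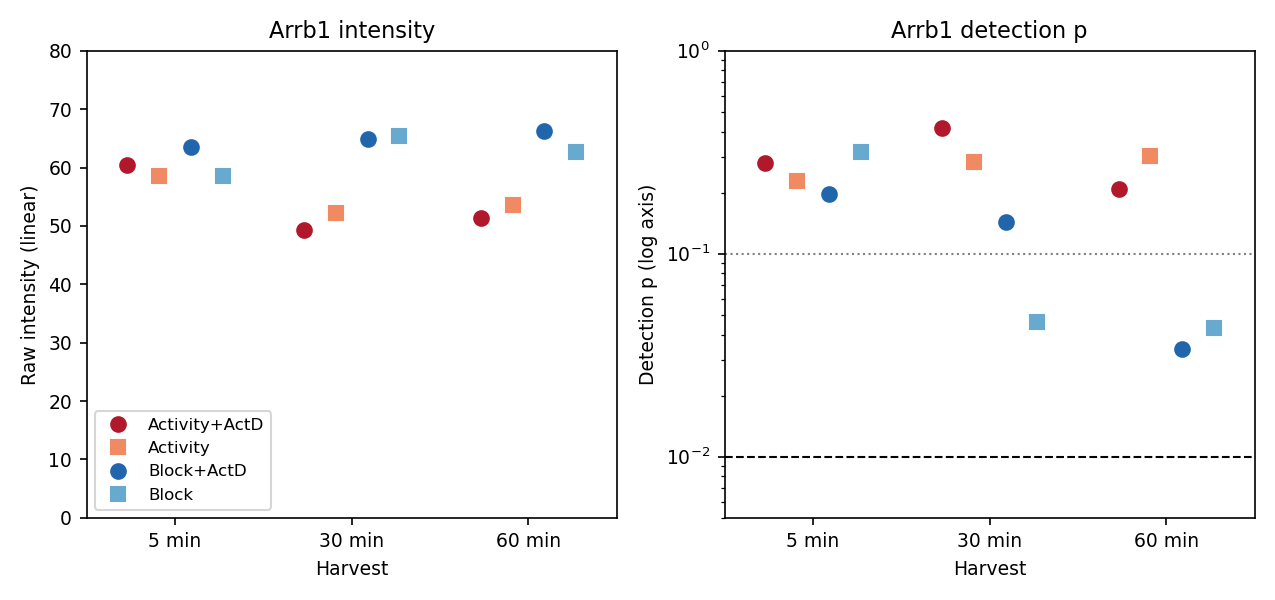
Arrb1 by harvest, 1 point per array, as raw intensity on a linear axis that starts at 0 (left) and as detection p on a log axis (right), where the dashed line marks 0.01 and the dotted line 0.1. Intensities lay between 49.3 and 66.2, no array fell under the dashed line, and 3 Block arrays fell under the dotted line.

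The comparison of Activity with Block asked whether 5 min of driven firing moved the mRNA of the hosts by 60 min after it. Without ActD, Eml2 was higher in Activity at each harvest, with mean levels of 7.61 ± 0.33 in Activity and 7.27 ± 0.16 in Block (log2, SD, n = 3 each). The differences were 0.23, 0.25 and 0.54 at 5, 30 and 60 min, and the groups overlapped only through the Block array of 60 min. Averaged over harvests the difference was 0.34 ± 0.12 (SE, 95% confidence interval 0.08 to 0.59), which did not pass the test across all probes (limma, Benjamini-Hochberg adjusted p = 0.654). On the scaling to equal total intensity it was 0.18 ± 0.09 (SE, limma adjusted p = 0.565). No probe did: 0% of the 11792 tested were called, against 884 at an unadjusted p under 0.05. For Nrdc, means were 7.96 ± 0.25 in Activity and 8.07 ± 0.08 in Block (log2, SD, n = 3 each). The difference was -0.11 ± 0.11 (SE, interval -0.35 to 0.12, limma adjusted p = 0.784), with values of -0.31, -0.07 and 0.04 at the 3 harvests, which did not share a sign.

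With ActD, which blocks new transcription, the activity difference of Eml2 was 0.12 ± 0.12 (SE, interval -0.13 to 0.38, limma adjusted p = 0.996). It came to 0.29 at 5 min and to 0.02 and 0.05 at 30 and 60 min, so most of it rested on the first harvest, and the fit of 30 and 60 min alone, chosen after seeing the data, gave 0.036. Nrdc gave -0.01 ± 0.11 (SE, interval -0.24 to 0.23, limma adjusted p = 0.998), with 0.10, -0.15 and 0.03 at the 3 harvests. Again 0% of probes were called, and 338 had an unadjusted p under 0.05. The activity effect with ActD minus the one without it was tested too, and came to -0.22 ± 0.17 for Eml2 (SE, interval -0.58 to 0.14, limma adjusted p = 0.744). For Nrdc it was 0.11 ± 0.15 (SE, interval -0.23 to 0.44, limma adjusted p = 0.860), and 0% of probes were called, with 755 at an unadjusted p under 0.05. The intervals leave room for activity differences of up to 0.59 for Eml2 and 0.35 in size for Nrdc, so neither gene is shown to be unaffected.

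A second reading followed the scheme of the study, in which each array was scaled to the same total and standardized, and the difference between an Activity and a Block array was divided by its SD over the 10040 probes whose detection p was below 0.1 on every array. A probe counted as co-regulated where this z-fold change was at or past 1.4, with 1 sign, both in the presence of ActD and in its absence. With ActD the z-fold of Eml2 was 1.62, 0.07 and 0.24 at 5, 30 and 60 min, and without ActD 0.96, 1.01 and 2.24. All of these are on log2 values, a choice made here. Eml2 therefore passed 1.4 upward once with ActD, at 5 min, where 8.09% of probes did, and once without, at 60 min, where 5.86% did, but at no harvest in both. On linear values those z-folds were 0.0750 and 0.266, and neither reached 1.4. On that scale the brightest probes set most of the SD, so these values do not check the passes. For Nrdc the z-fold was 0.58, -0.56 and 0.10 with ActD and -1.35, -0.38 and 0.11 without, and it did not reach the threshold at any harvest. Neither gene was co-regulated at any harvest, at 1.4 or at 1.3, and at 1.4 0.299%, 0.618% and 0.139% of probes were co-regulated upward and 0.329%, 2.97% and 0.189% downward at 5, 30 and 60 min. Arrb1 did not meet the detection requirement. These values set 1 array against 1 array and have no replicate check.

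**Figure D3:**
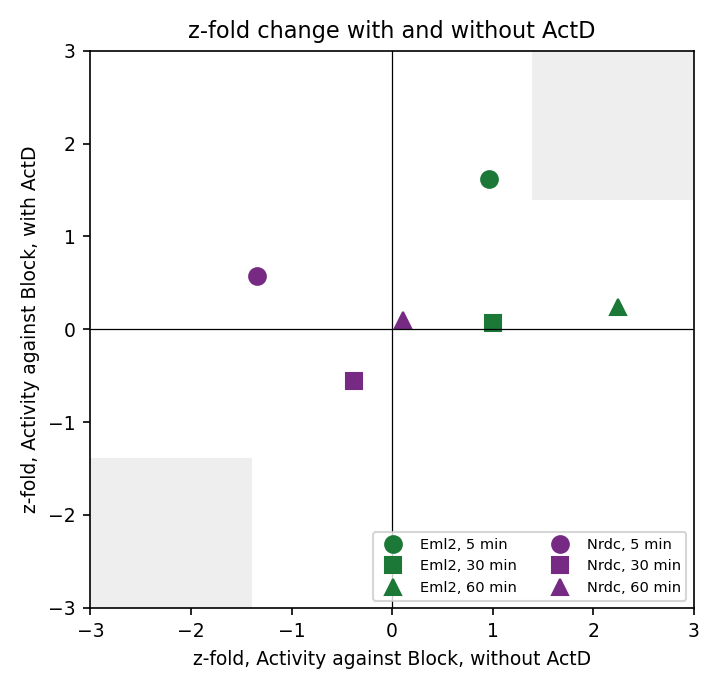
The z-fold change of Activity over Block with ActD (vertical) against that without ActD (horizontal) for Eml2 and Nrdc, 1 point per harvest, each from 1 array against 1 array. The shaded corners mark co-regulation at 1.4 in both, and none of the 6 points lies there, with Eml2 at 60 min at 2.24 without and 0.24 with ActD.

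ActD itself was then compared within each stimulus. In Block, Eml2 averaged 7.59 ± 0.26 with ActD and 7.27 ± 0.16 without (log2, SD, n = 3 each), with the ActD array higher at every harvest, by 0.31, 0.20 and 0.42. The mean difference was 0.31 ± 0.12 (SE, interval 0.06 to 0.57, limma adjusted p = 0.152), and 0.16 ± 0.09 on total-intensity scaling (SE, limma adjusted p = 0.356). In Activity the difference for Eml2 was 0.10 ± 0.12 (SE, interval -0.16 to 0.35, limma adjusted p = 0.9999), made up of 0.38, -0.03 and -0.06 at 5, 30 and 60 min. For Nrdc the ActD difference was -0.18 ± 0.11 in Block (SE, interval -0.41 to 0.06, limma adjusted p = 0.336) and -0.07 ± 0.11 in Activity (SE, interval -0.31 to 0.17, limma adjusted p = 0.9999). Nrdc was thus lower with ActD at all 3 harvests of Block, by 0.30, 0.01 and 0.21, and at 30 and 60 min of Activity, but higher by 0.11 at 5 min of Activity. Over both stimuli the difference was 0.20 ± 0.08 for Eml2 and -0.12 ± 0.08 for Nrdc (SE, limma adjusted p = 0.235 and 0.395), and total-intensity scaling gave 0.11 for Eml2. In these 3 comparisons 0% of probes were called, while 2713, 293 and 2167 had an unadjusted p under 0.05 in Block, in Activity and over both. Leaving out Block+ActD at 30 min gave 1327 calls in Block and 604 over both, neither host among them.

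The later harvests, taken as the mean of 30 and 60 min, were set against 5 min with the 4 treatments as replicates. In the Activity treatments the later harvests came after BiC and 4-AP had been removed. Nrdc rose: its level was 8.04 ± 0.11 on the 8 later arrays and 7.78 ± 0.15 on the 4 arrays of 5 min (log2, SD). The difference was 0.26 ± 0.08 (SE, interval 0.08 to 0.44, limma adjusted p = 0.0176), a fold of 1.20. It was positive in 4 of 4 treatments, at 0.15 in Activity+ActD, 0.43 in Activity, 0.32 in Block+ActD and 0.13 in Block. The call was shared by much of the array, since 49.3% of all probes were called in this comparison, 25.9% higher and 23.4% lower, so a call here sets Nrdc apart little. It was lost on leaving out Activity at 5 min (0.20, limma adjusted p = 0.0840) or Block+ActD at 5 min (0.24, limma adjusted p = 0.0664). Eml2 gave 0.16 ± 0.09 (SE, interval -0.03 to 0.35, limma adjusted p = 0.164), with 0.35, 0.18 and 0.18 in Activity, Block+ActD and Block and -0.08 in Activity+ActD. It passed the test on total-intensity scaling (0.24, limma adjusted p = 0.01002) and median scaling (0.22, limma adjusted p = 0.0219), and leaving out each array gave 0.093 (without Activity at 5 min) to 0.23 (without Activity+ActD at 5 min).

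Cell type markers differed along with harvest. The summed linear intensity of the neuronal markers was 58813 to 73601 on the later arrays and 47871 to 56762 at 5 min. Of these markers 13 of 13 were higher later, 10 of them past the test. Over all probes 25.9% were called higher and 23.4% lower. The microglial sum was 96.0 to 139 later and 961 to 1559 at 5 min, with 11 of 13 markers on the array and 7 of 7 tested markers lower and past the test. P2ry12 and Ptprc, which mark resting microglia and all leukocytes, were detected on no array. The astrocyte sum, over 7 of 7 markers detected on all arrays, was 40005 to 47394 later and 44097 to 50738 at 5 min. Of these 7 markers 3 were higher and 4 lower later, with 2 called in each direction. The sum of fibroblast and vessel markers was 788 to 1322 later and 1318 to 1606 at 5 min, with Cdh5 and Rgs5 detected on no array. The interneuron sum was 5206 to 7242 later and 4129 to 4833 at 5 min, with 6 of 9 tested markers called higher and 1 lower. The oligodendrocyte lineage sum was 14180 to 16615 later and 14922 to 16205 at 5 min. Of its 8 tested markers 7 were lower later, 2 of them past the test, and 1 was higher and past it. The part of these shifts in the Nrdc difference was not tested, and in RNA from whole cultures fewer cells of a type and less RNA per cell cannot be told apart.

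Split by ActD, the difference of later harvests from 5 min in Nrdc was 0.24 ± 0.11 with ActD (SE, interval 0.00 to 0.47, limma adjusted p = 0.0836) and 0.28 ± 0.11 without (SE, interval 0.05 to 0.51, limma adjusted p = 0.0659). Neither passed the test, where 50.1% and 31.1% of probes were called. Leaving out Activity+ActD at 30 min put both past it, at 0.29 with ActD (limma adjusted p = 0.0397) and 0.28 without (limma adjusted p = 0.0393), and leaving out Block+ActD at 30 min did so without ActD (0.28, limma adjusted p = 0.0396). Conversely, leaving out Block+ActD at 5 min gave 0.15 with ActD (limma adjusted p = 0.491), and leaving out Activity at 5 min gave 0.13 without (limma adjusted p = 0.624). For Eml2 the values were 0.05 ± 0.11 with ActD (SE, interval -0.20 to 0.30, limma adjusted p = 0.738) and 0.26 ± 0.11 without (SE, interval 0.01 to 0.51, limma adjusted p = 0.105). The harvest difference with ActD less that without was -0.04 ± 0.15 for Nrdc and -0.21 ± 0.16 for Eml2 (SE, limma adjusted p = 0.894 and 0.467), in a comparison where 7.82% of probes were called. That share rested on single arrays, since the 922 probes called became 1592 without Activity+ActD at 30 min and 297 without Block at 5 min. The sign for Nrdc turned without Activity at 5 min (0.11) and without 3 other arrays.

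Between 30 and 60 min Eml2 rose. It averaged 7.82 ± 0.24 at 60 min and 7.38 ± 0.12 at 30 min (log2, SD, n = 4 each), and the difference was 0.44 ± 0.10 (SE, interval 0.22 to 0.66, limma adjusted p = 0.0185), a fold of 1.36. All 4 treatments had the higher value at 60 min, by 0.51 in Activity+ActD, 0.54 in Activity, 0.47 in Block+ActD and 0.25 in Block. The 4 arrays of 60 min, at 7.46 and above, only just cleared the 4 of 30 min, and in raw intensity the groups overlapped, since Block at 60 min gave 208.5 and Block+ActD at 30 min gave 223.5. In this comparison 6.47% of probes were called, 2.89% higher and 3.58% lower (763 probes, and 443 without Activity+ActD at 60 min). The call was lost without Activity+ActD at 60 min (0.47, limma adjusted p = 0.0534), Activity at 60 min (0.39, limma adjusted p = 0.0980), Block+ActD at 60 min (0.43, limma adjusted p = 0.0718), Activity+ActD at 30 min (0.39, limma adjusted p = 0.0863) or Activity at 30 min (0.45, limma adjusted p = 0.0627). Nrdc gave -0.09 ± 0.09 (SE, interval -0.29 to 0.11, limma adjusted p = 0.682), negative in 3 of 4 treatments. Neuronal markers summed to 58813 to 64661 at 60 min and 67453 to 73601 at 30 min. Of these, 12 were lower at 60 min and 1 higher, with 3 called lower. Interneuron markers summed to 5206 to 6025 at 60 min and 6753 to 7242 at 30 min, with 8 lower, 1 higher and 3 called lower. The astrocyte sum was 40005 to 44659 at 60 min and 42359 to 47394 at 30 min. Its markers mostly went the other way, with 5 of 7 higher at 60 min and a median of 0.24. Of those 7, 2 were called higher and 1 lower. The microglial sum was 96.0 to 106 at 60 min and 124 to 139 at 30 min. It is a weak signal, since no microglial marker was detected on every array. All 7 tested microglial markers were lower at 60 min, but 0 passed the test. The part of these markers in the Eml2 difference was not tested.

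**Figure D4:**
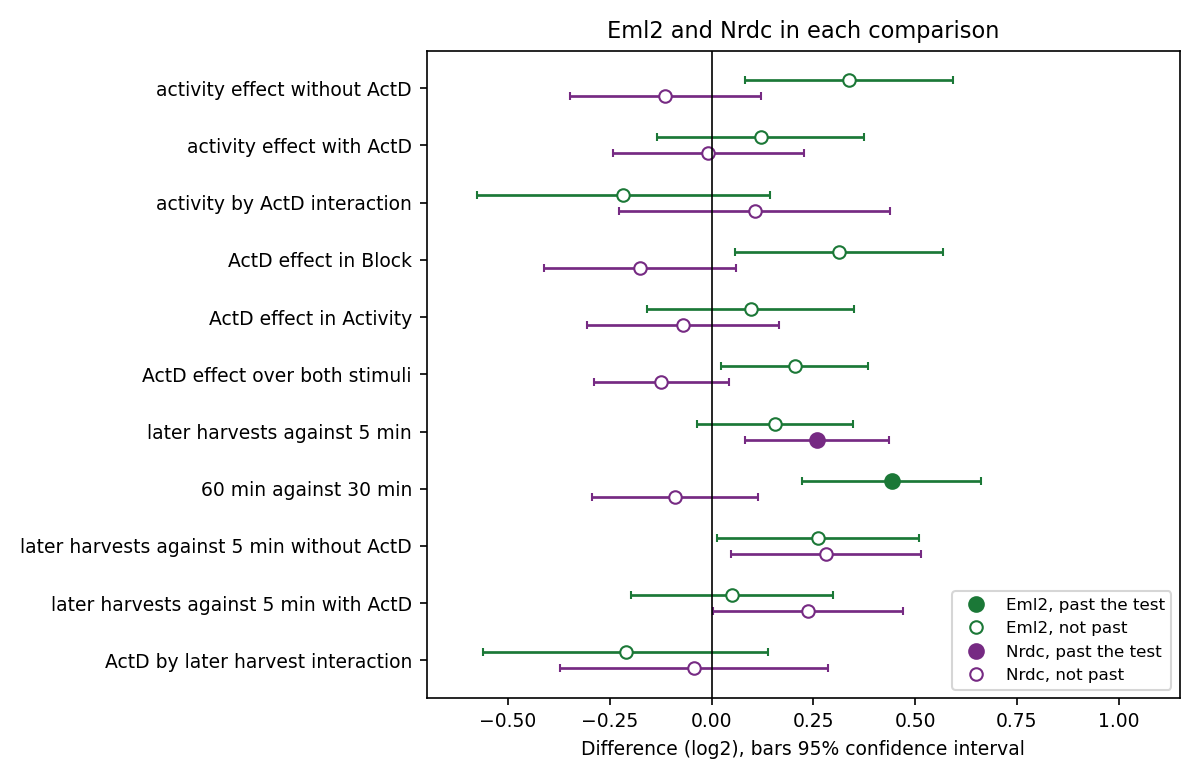
Difference (log2, horizontal axis) with its 95% confidence interval for Eml2 and Nrdc in the 11 comparisons, where filled points passed the limma test at an adjusted p of 0.05. The filled points are Nrdc in the later harvests against 5 min (0.26) and Eml2 in 60 against 30 min (0.44).

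**Figure D5:**
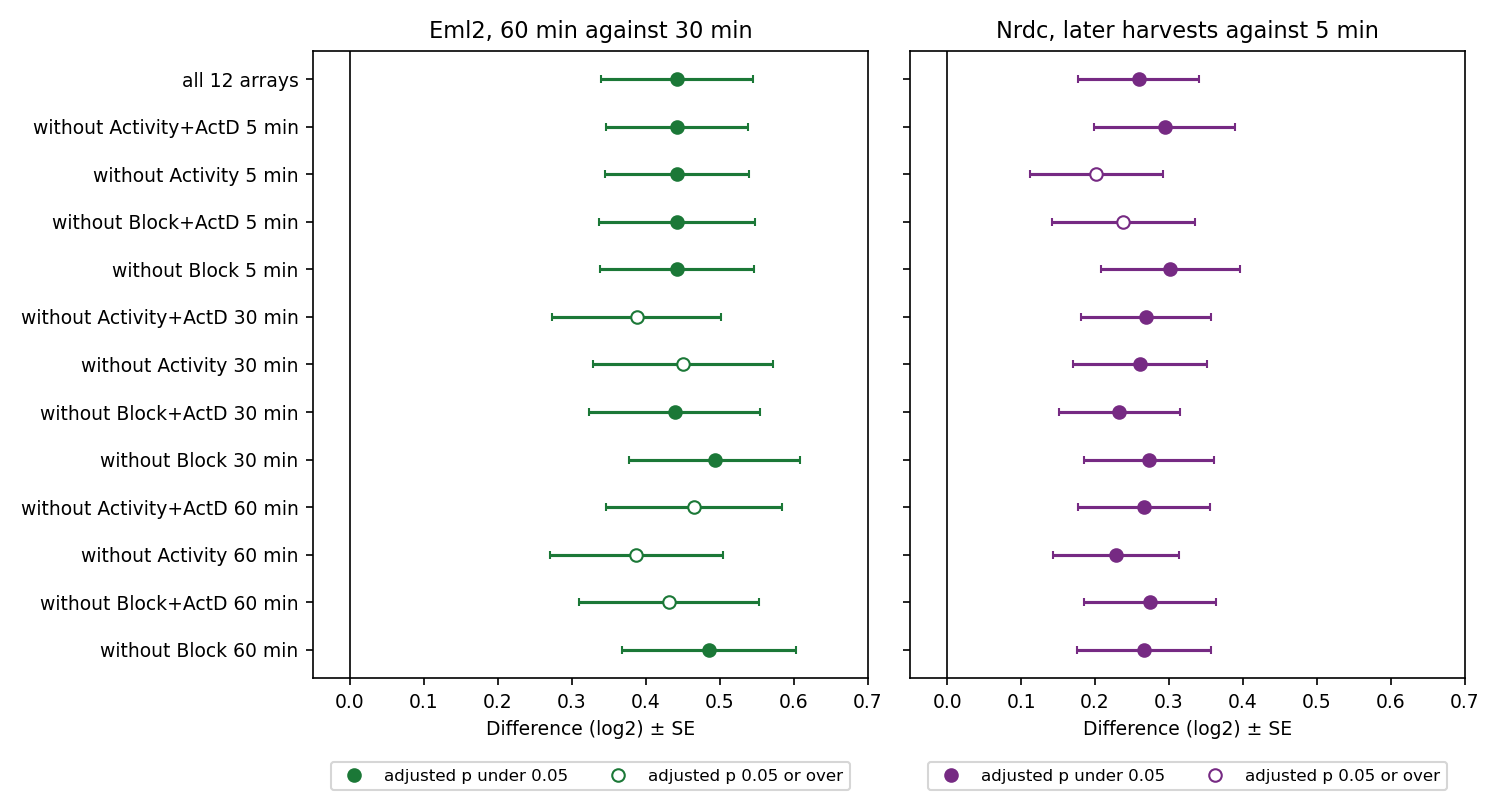
Difference (log2) ± SE of Eml2 at 60 against 30 min (left) and of Nrdc at the later harvests against 5 min (right), over all 12 arrays and with each array left out in turn, filled where the adjusted p was under 0.05. Eml2 stayed between 0.39 and 0.49 and Nrdc between 0.20 and 0.30, with 5 and 2 open points.

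The relatives of the hosts on the array behaved in different ways between harvests. Of the EML family, only Eml4 was named on the array, and its difference of later harvests from 5 min was 0.24 ± 0.11 (SE, limma adjusted p = 0.0797), with -0.04 ± 0.12 for 60 against 30 min. Of the M16 family, Ide and Pitrm1 rose at the later harvests, where 25.9% of all probes were called higher and 23.4% lower. The M16-related Uqcrc1 fell, at -0.34 ± 0.06 (SE, limma adjusted p = 2.31e-04). Ide, the insulin-degrading enzyme, gave 1.04 ± 0.18 (SE, limma adjusted p = 3.27e-04). It was detected on 11 arrays, all but Block+ActD at 5 min, which gave 5.29, against 6.55 to 6.80 on the other 5 min arrays (log2). Split by ActD, its difference was 1.46 with ActD and 0.62 without. Pitrm1, the mitochondrial presequence protease, gave 0.38 ± 0.10 (SE, limma adjusted p = 0.00616). Neither passed the test for Activity against Block without ActD, at -0.02 ± 0.24 for Ide and -0.15 ± 0.13 for Pitrm1.

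The working partners of each host were followed as lists. Of 31 genes for receptor kinases, beta-arrestin partners and clathrin uptake, 22 were tested, and none passed for Activity against Block without ActD, with 8 higher and 14 lower and a median of -0.04, against 0.01 over all probes. The lowest p-values belonged to Pde4d, a cAMP phosphodiesterase that beta-arrestins recruit, at -0.53 ± 0.15, Arf6, a small GTPase of endocytosis, at 0.40 ± 0.17, and Nsf, the ATPase that takes SNARE complexes apart, at -0.22 ± 0.10 (log2, SE). At the later harvests 7 of the 22 rose and 4 fell, where 25.9% of all probes were called higher and 23.4% lower, and the median was -0.03, against -0.01 over all probes. Those named were Nsf (1.38 ± 0.08), the AP-2 adaptor subunit Ap2b1 (0.61 ± 0.06) and the clathrin heavy chain Cltc (1.55 ± 0.19), each higher than at 5 min. Between 30 and 60 min the only member past the test was the GTPase dynamin 1, Dnm1, at -0.31 ± 0.08. It was named after its value was seen, and 6.47% of all probes were called in that comparison.

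Of 28 genes of the EML family and microtubule dynamics, 19 were tested. None passed for Activity against Block without ActD, where 7 were higher and 12 lower with a median of -0.04. The plus-end binding proteins Clip1 and Mapre1 gave -0.46 ± 0.16 and -0.22 ± 0.10, and Stmn4, a stathmin, gave 0.19 ± 0.10 (log2, SE). At the later harvests 8 rose and 2 fell, beside 25.9% and 23.4% of all probes, and the median was 0.24, against -0.01 over all probes. The 3 with the lowest p were the minus-end binding Camsap2 (1.53 ± 0.16), the plus-end tracking Clasp2 (1.16 ± 0.13) and the tubulin-sequestering Stmn1 (0.25 ± 0.05), all higher. Between 30 and 60 min Mapre1 alone passed, at 0.35 ± 0.09, beside 6.47% of all probes called. It was named after its value was seen.

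Of 26 genes for M16 proteases and ectodomain shedding, 19 were tested, and for Activity against Block without ActD 9 were higher and 10 lower, none past the test, with a median of -0.01. Psen2, a catalytic subunit of gamma-secretase, gave 0.28 ± 0.12, the shed growth factor Hbegf 0.32 ± 0.15 and Uqcrc1, an M16-related core protein of respiratory complex III, 0.14 ± 0.07 (log2, SE). At the later harvests 5 rose and 5 fell, beside 49.3% of all probes called, with a median of -0.01, the same as over all probes. Hbegf (-0.92 ± 0.11), Psen2 (-0.71 ± 0.09) and Uqcrc1 (-0.34 ± 0.06) were lower later. None of the 19 passed between 30 and 60 min, where 6.47% of all probes were called. An unadjusted p under 0.05 by limma was found for 2 of the 19, beside 18.7% of all probes.

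Among the 57 other tested hosts of the microRNA entries counted above, 24 were higher and 33 lower in Activity than in Block without ActD. None passed the test, and the median was -0.01. Pde4d, which is also a host, of Mir582, was first by p, followed by Astn1, which encodes a protein of neuronal migration and holds Mir488, at -0.30 ± 0.10, and the growth factor gene Igf2, host of Mir483, at 0.27 ± 0.12 (log2, SE). At the later harvests 20 rose and 8 fell, beside 49.3% of all probes called, with a median of 0.05, against -0.01 over all probes. Igf2 fell by 2.02 ± 0.09, Plod3, a collagen lysyl hydroxylase and host of Mir702, fell by 0.76 ± 0.07, and Astn1 rose by 1.001 ± 0.079. Between 30 and 60 min 3 rose and 2 fell, beside 6.47% of all probes called, all named after their values were seen. Those that rose were Efnb1 (0.32 ± 0.07), an ephrin, Mcm7 (0.48 ± 0.09), a subunit of the replicative helicase, and Srebf2 (0.55 ± 0.14), a regulator of cholesterol synthesis. Arpp21, a cAMP-regulated phosphoprotein, fell by 0.45 ± 0.08 and Igf2 by 0.90 ± 0.11.

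As a check of the stimulus, 6 activity-induced early genes were tested. All 6 were higher in Activity than in Block without ActD, where 53.2% of all probes were higher, and the median was 0.10. None passed the test, and Junb had the lowest p, at 0.27 ± 0.10 (log2, SE). With ActD 4 were higher and 2 lower, with a median of 0.03. At the later harvests 5 of the 6 fell, where 23.4% of all probes were called lower, with Junb at -2.22 ± 0.08 and Fos at -1.84 ± 0.12. That comparison pools Activity and Block arrays, so it does not tie the fall to the stimulus. The median was -0.47 with ActD and -0.46 without, with all 6 lower in both.

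The genes most like each host over the 12 arrays were found after subtracting the mean of each harvest, among 8355 other named probes. For Eml2 these were Mettl7a (r = 0.95), the ATP synthase subunit gene Atp5mc3 (0.95), the biliverdin reductase gene Blvrb (0.93), the Polycomb gene Cbx7 (0.92) and the nucleotide receptor gene P2ry4 (0.92, detected on 8 arrays). For Nrdc they were the trypsin inhibitor gene Spink1 (0.97, detected on 11 arrays), the odorant receptor gene Or1j13 (0.90, detected on 3), the adenylate cyclase gene Adcy2 (0.90), the matricellular protein gene Ccn3 (0.88) and Cript (0.88). Without the centring the same r was between -0.20 (Blvrb) and 0.61 (P2ry4) for Eml2 and between -0.27 (Adcy2) and 0.87 (Ccn3) for Nrdc. Eml2 and Nrdc themselves gave r = -0.42 and rho = -0.22 on the same values. These describe 12 arrays that share treatments and normalization, and each value was picked as one of the highest among all candidates.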

How the data were processed

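Processed values of 12 Illumina RatRef-12 arrays were used, 1 per group. The authors deposited, for each probe, the raw bead intensity and the detection p-value given by the scanner software, whose version no source used here gave, with no normalization. They also deposited a scaled version, in which every array had been brought to an equal total by a factor of 0.882 to 1.12, linear and not centred, used here for the z-fold and as an alternative scaling. The deposited raw intensities were background corrected and quantile normalized here with neqc of limma 3.58.1 (R 4.3.3, offset 16), with negative controls inferred from the detection p-values, and were taken to log2. Neqc can compress differences of dim probes. Probes that 2 or more arrays detected at p under 0.01 (11792 of 22523) were fitted with lmFit and eBayes with a variance trend. The fit had harvest and treatment as additive terms (6 residual degrees of freedom) or, for harvest differences split by ActD, harvest by ActD with stimulus (4 residual degrees of freedom). P-values were adjusted over all tested probes by Benjamini-Hochberg, with a threshold of 0.05. The fit was tested on simulated data with independent noise and planted differences. These data held no change of a treatment difference between harvests, so they do not check the calls made here. The number of arrays limits the precision.

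Gene symbols came from the platform annotation, which gives 1 symbol to 13793 probes. Where a listed gene had several tested probes, the brightest was used for counts and differences. The marker sums instead added every probe of the listed genes, detected or not, so sums and counts can rest on different probes. MicroRNA positions and sequences, and the hosts, came from RefSeq tables of GRCr8, which hold no exons. All probes of the hosts were described. From each list were named the 3 genes with the lowest p in the activity effect without ActD and in the later harvests against 5 min, the closest family members and, for each tested host, the 5 genes with the highest correlation. The members and lists were chosen with earlier results of these data known. The z-fold formula was a choice made here. Alternatives covered the offset, scaling, filter, variance model, z-fold scale and threshold, and leaving out each array.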

Additional observations from a re-analysis of the deposited data

How the results depend on the processing

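Both calls, Nrdc at the later harvests against 5 min and Eml2 at 60 against 30 min, held under the 7 alternatives that kept all arrays (0.23 to 0.33 and 0.31 to 0.44). Scaling to total intensity gave, at the later harvests, Eml2 0.24 overall and 0.28 without ActD and Nrdc 0.37 with and 0.30 without ActD, all then past the test, and an ActD by harvest difference of 0.066 for Nrdc. Median scaling put Eml2 past the test at 0.22 overall and 0.27 with ActD, and Nrdc at 0.43 with ActD. It turned the ActD by harvest difference to 0.10 for Eml2 and 0.24 for Nrdc (2044 probes called, against 922, and 511 with no variance trend) and the activity effect with ActD to 0.012 for Nrdc. The fit of 30 and 60 min alone, chosen after seeing the data, gave an activity by ActD difference of -0.051 for Nrdc, an ActD effect in Activity of -0.045 for Eml2 and 10 calls for ActD in Block (1 with robust variance). On a linear scale the z-folds were 0.0750 (Eml2, 5 min, with ActD), 0.266 (Eml2, 60 min, without) and -0.150 (Nrdc, 5 min, without). The brightest probes set most of the SD on that scale, so these values do not check those on log2. The cause of the other shifts was not tested. Leaving out each array in turn gave Eml2 0.39 to 0.49 at 60 against 30 min, -0.077 to 0.18 at the later harvests with ActD and -0.0076 to 0.17 for ActD in Activity. Nrdc ranged over 0.20 to 0.30 at the later harvests, 0.15 to 0.32 with ActD, 0.13 to 0.43 without, -0.19 to 0.11 for the ActD by harvest difference, -0.055 to 0.062 for activity with ActD and -0.15 to 0.011 for ActD in Activity. Counts called were then 443 to 825 at 60 against 30 min, 1705 to 4210 at the later harvests without ActD, 297 to 1592 for the ActD by harvest difference, 0 to 1327 for ActD in Block and 0 to 604 for ActD over both stimuli; the highest of both ActD counts came without Block+ActD at 30 min. Without a filter Arrb1, near background on every array, passed in 0 of 11 comparisons by limma (adjusted p 0.271 to 0.9999). Its 2 comparisons at an unadjusted p under 0.05 were the activity effects with and without ActD, both lower in Activity. No paired analysis was possible because all arrays carry the same replicate number; harvest, as a term of the fit, already sets treatments against each other within a harvest, and without it the SE of Eml2 for activity without ActD was 0.21, against 0.12.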
